A study of Mus musculus with 2 samples.

Results

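Cytosolic ribosomal protein genes were described in leukocytes sorted from tumours of the mouse melanoma line B16-F10, grown under the skin of C57BL/6 mice. The members were chosen by name: symbols that start with Rpl or Rps followed by a digit, together with Rplp0, Rplp1, Rplp2 and Rpsa, without pseudogenes named as such and without the Rps6k kinases. Of 31053 genes listed, 86 symbols fitted, and 83 held at least 1000 UMIs over both libraries (unique molecular identifiers, 1 per captured RNA molecule). Of these, 49 carry large subunit names and 34 small subunit names. The members comprise 77 genes of the standard set and 6 relatives, which are Rpl22l1, Rpl36al, Rpl7l1 and Rps27l (paralogues), Rps27rt (a retrotransposed copy of Rps27) and Rps19bp1 (which encodes a protein that binds Rps19 and is not itself a ribosomal protein).

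There was 1 library from mice given an agonist antibody to OX40, the costimulatory receptor Tnfrsf4 of activated T cells, and 1 library from control mice. All mice were female wild-type C57BL/6, implanted at 10 weeks of age, and all cells had been sorted as positive for CD45. The labels' protocols give them as negative for DAPI, a dye that enters dead cells, whereas the design text of the series gives the opposite sign. The sources used here give neither the dose and schedule, nor the control injection, nor the number of mice behind each library. The libraries held 8569 barcodes and 118059108 UMIs with OX40 agonist, and 7187 barcodes and 114026695 UMIs in control, with medians of 7309 and 8927 UMIs per barcode. With 1 library per group, treatment and library cannot be told apart, no test was possible, and the 95% intervals in parentheses cover counting error only.

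A ribosome joins a small subunit, which reads the mRNA, to a large subunit, which forms the peptide bonds, and each subunit combines ribosomal RNA with many small proteins. Most mRNAs of these proteins begin with a terminal oligopyrimidine (TOP) tract, a C at the transcript start followed by a run of C and T, through which mTOR signalling controls their translation. A few ribosomal proteins have paralogues that can take the same place in the ribosome, and Rpl22 is needed for the development of alpha-beta T cells in mice.

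The starts of 6 members that recur in the results are shown with 40 bases before and 20 bases after the annotated start. They were read from RefSeq on GRCm38.p6, and capitals mark the unbroken run of C and T where one begins with C at the start itself. The first 3 set Rps27 (chr3:90213629-90213688, minus strand) beside its copy Rps27rt (chr9:114982720-114982779, minus strand) and its paralogue Rps27l (chr9:66946046-66946105, plus strand, 1 of its 2 annotated starts). The others are Rpl22l1 (chr3:28805468-28805527, plus strand), the paralogue of Rpl22, and 2 genes whose levels are described further on, Rpl35 (chr2:39005112-39005171, minus strand) and Rpl12 (chr2:32961672-32961731, plus strand).
Rps27: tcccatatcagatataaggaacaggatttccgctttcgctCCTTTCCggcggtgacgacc
Rps27rt: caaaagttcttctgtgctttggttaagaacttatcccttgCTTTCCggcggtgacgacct
Rps27l: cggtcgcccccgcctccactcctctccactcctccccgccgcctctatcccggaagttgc
Rpl22l1: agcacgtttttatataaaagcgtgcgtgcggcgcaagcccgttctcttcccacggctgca
Rpl35: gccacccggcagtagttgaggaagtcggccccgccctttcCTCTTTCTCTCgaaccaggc
Rpl12: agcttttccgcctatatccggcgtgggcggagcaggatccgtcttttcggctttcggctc

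Rps27 and Rps27rt shared an unbroken run of 38 bases that begins at the second base of the Rps27 transcript and at the first base of the Rps27rt transcript, whereas the bases before their starts differed. Rps27, Rps27rt and Rpl35 carried the TOP letters at the annotated start, searched on the gene's own strand as a C followed by at least 4 bases that are each C or T. Rps27l, Rpl22l1 and Rpl12 had no such run at the start but had one that began within 5 bases of it. A start window was found for 63 of the 83 members. The letters stood at the start in 14 of these (22.2%) and within 5 bases in 30 (47.6%). Among all 27025 genes with a window, they stood at the start in 3.01% and within 5 bases in 21.2%. An annotated start can lie some bases from the one a cell uses, so a window without the letters says only that they are not at that position.

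Ribosomal protein genes were a large part of all RNA captured in both libraries. They held 20.3% of all UMIs with OX40 agonist and 20.01% in control. The most abundant members were Rpl32 with 1310907 UMIs over both libraries, Rpl13 with 1185267, Rps24 with 1152629 and Rplp1 with 1125834. The least abundant were Rps27rt with 10326, Rps19bp1 with 13600, Rpl7l1 with 17935, Rpl13a with 54398 and Rpl36al with 72545. Below the minimum of 1000 UMIs stood 3 paralogues that are known mainly from testis or muscle: Rpl39l with 424 UMIs, Rpl3l with 249 and Rpl10l with 1.

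Cells were assigned to types by UMIs of marker genes, none of them a ribosomal protein gene, and 13 types were found. Of the kept cells, 5091 of 6986 with OX40 agonist and 4180 of 5989 in control passed exactly 1 gate, while 27.1% and 30.2% passed none and are left out of the types. The gates themselves hold markers of other lineages low. Although all cells had been sorted as leukocytes, 516 with OX40 agonist and 304 in control held at least 100 UMIs of pigment cell markers with at most 2 of CD3 genes and 5 of phagocyte markers, and they are called melanoma cells here. Medians of the T cell, phagocyte, NK, B and neutrophil markers were 0 in them, and that of mature migratory dendritic cell markers was 1 UMI. The summed pigment cell markers had medians of 0 to 2 UMIs per leukocyte (the gates admit at most 10), against 967.5 per melanoma cell with OX40 agonist and 1229 in control.

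CD8 T cells and NK cells, the main cytotoxic lymphocytes, devoted the largest share of their UMIs to ribosomal proteins among the 7 types with at least 100 cells per library. The share of summed UMIs in CD8 T cells was 26.4% (26.4 to 26.5) with OX40 agonist and 25.7% (25.7 to 25.7) in control. In NK cells it was 26.4% (26.3 to 26.5) and 26.3% (26.2 to 26.4). Regulatory T cells, which suppress immune responses and are marked by Foxp3, stood lower at 21.0% (20.9 to 21.0) and 20.6% (20.5 to 20.7). Melanoma cells were next, with 20.5% (20.5 to 20.5) and 19.8% (19.8 to 19.8). They were followed by mature migratory dendritic cells (DCs, marked by Ccr7 and Fscn1) at 19.6% (19.6 to 19.6) and 17.9% (17.8 to 17.9). Macrophages, marked by C1q genes, had 17.1% (17.1 to 17.1) with OX40 agonist and 16.2% (16.2 to 16.2) in control. Monocytes were lowest of the 7 at 15.9% (15.9 to 15.9) and 15.6% (15.5 to 15.6).

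The order of the 7 types by summed UMIs was the same in both libraries, except that CD8 T cells and NK cells changed places. Over single cells, the share spread widely within a type, and neighbours in that order overlapped. The median CD8 T cell had 26.0% (quartiles 23.3 and 28.6) with OX40 agonist and 25.4% (quartiles 22.9 and 27.9) in control. The median NK cell had 26.1% (quartiles 21.9 and 29.4) and 25.7% (quartiles 21.7 and 28.9). Both ranges lay wholly above those of macrophages, with quartiles of 14.1 and 19.4% with OX40 agonist and 13.5 and 18.6% in control, and above those of monocytes, with quartiles of 13.2 and 18.5% and of 13.1 and 18.1%. CD8 T cells had 1.54 times the share of macrophages with OX40 agonist and 1.58 times in control. With every cell of at least 1000 UMIs thinned to that depth, which gives each cell the same weight, the ratios were 1.57 and 1.61. The interquartile ranges of regulatory T cells, melanoma cells and mature migratory DCs overlapped with one another in both libraries. By the median cell, melanoma cells stood above regulatory T cells, with 20.5% against 19.7% with OX40 agonist and 19.8% against 18.7% in control.

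**Figure D1:**
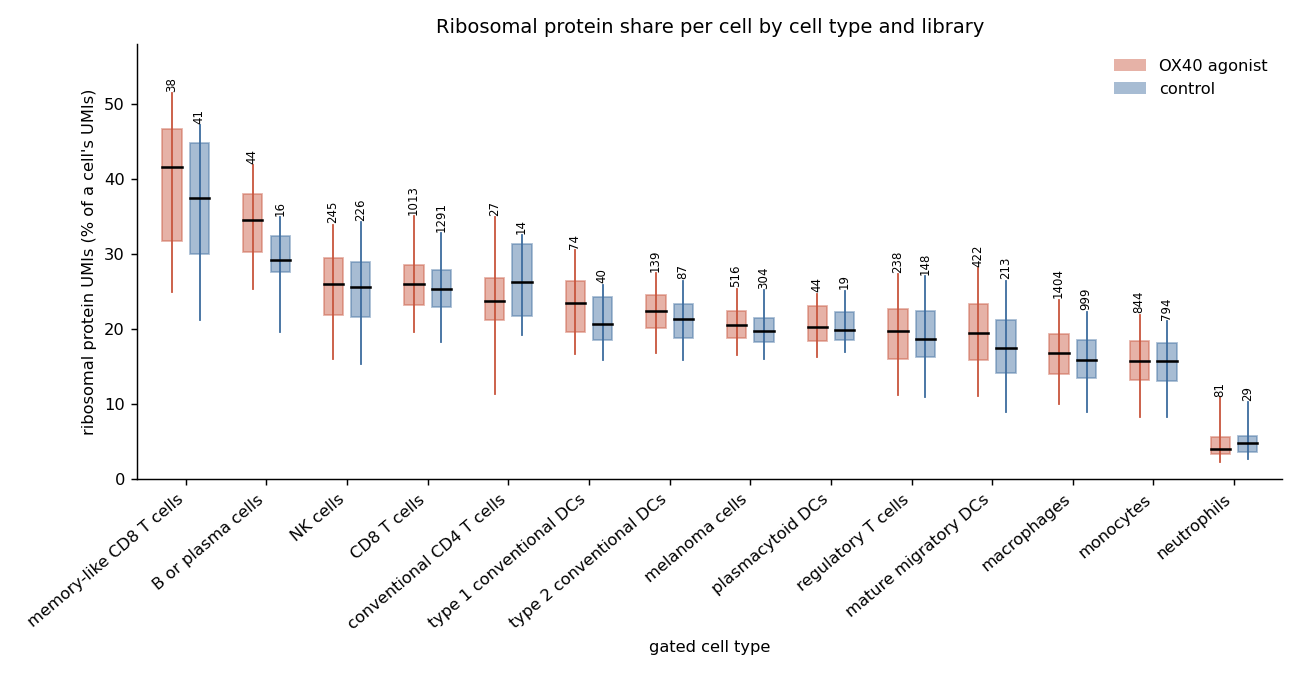
Share of each cell's UMIs that came from the 83 ribosomal protein genes, in percent, for 13 gated cell types and memory-like CD8 T cells, with the OX40 agonist library in red and the control library in blue. Boxes run from the lower to the upper quartile over cells with the median as a black line, thin lines run from the 5th to the 95th percentile, and numbers are cells; memory-like CD8 T cells stand highest with medians of 41.7 and 37.4%, and neutrophils lowest with 3.99 and 4.77%.

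The extremes of the range came from small groups of cells. CD8 T cells with at least 3 of 5 markers of naive or central memory cells, numbering 38 with OX40 agonist and 41 in control, had shares of 36.8% (36.6 to 37.0) and 32.7% (32.5 to 32.8) of summed UMIs. Their median cells held 41.7% and 37.4%, at median depths of 5733 and 6660 UMIs. B or plasma cells had 35.0% (34.9 to 35.2) with OX40 agonist, from 44 cells, and 27.4% (27.2 to 27.7) in control, from only 16 cells. Conventional CD4 T cells had 24.2% (24.0 to 24.4) from 27 cells and 28.7% (28.4 to 29.0) from 14 cells, too few cells to describe either group of mice.

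Neutrophils stood far below every other type. Ribosomal protein genes gave 5.05% (4.93 to 5.18) of their UMIs with OX40 agonist, from 81 cells, and 5.79% (5.60 to 5.98) in control, from 29 cells. These cells were also shallow, with medians of 1359 and 1678 UMIs, of which a median of 53 and 70 were from ribosomal protein genes. Type 1 conventional DCs had 23.0% (22.9 to 23.1) and 21.0% (20.9 to 21.0), type 2 conventional DCs 22.4% (22.3 to 22.5) and 21.1% (21.0 to 21.2), and plasmacytoid DCs 20.6% (20.4 to 20.7) and 20.2% (20.02 to 20.4). A share falls when other genes take more of the UMIs, so fewer ribosomal protein transcripts and more of other transcripts cannot be told apart.

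Cycling cells devoted a smaller share of their UMIs to ribosomal protein genes than noncycling cells of the same type, in both libraries. Cells were called cycling at 5 or more UMIs of 6 mitosis genes per 10000 UMIs, and noncycling below 1. In CD8 T cells the share was 25.6% (25.6 to 25.7) in cycling and 27.4% (27.3 to 27.4) in noncycling cells with OX40 agonist. In control it was 25.0% (24.9 to 25.0) and 26.8% (26.8 to 26.9). The median cycling and noncycling CD8 T cells had 25.3% and 26.4% with OX40 agonist, and 24.9% and 26.2% in control. Memory-like CD8 T cells, with 36.8% and 32.7% of summed UMIs, were not taken out of these groups, and their part in the difference was not tested. Cycling melanoma cells had 19.8% (19.8 to 19.8) against 22.3% (22.3 to 22.3) in noncycling ones with OX40 agonist, and 19.0% (19.0 to 19.1) against 21.4% (21.3 to 21.4) in control.

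The genes that build ribosomes went the other way. The ribosome biogenesis list, with 22 genes (nucleolar and polymerase I factors such as Ncl, Fbl and Nop56, and their regulator Myc), took 0.266% of UMIs in cycling and 0.160% in noncycling CD8 T cells with OX40 agonist, and 0.283% and 0.164% in control. In melanoma cells it took 0.354% in cycling and 0.214% in noncycling cells with OX40 agonist, and 0.341% and 0.208% in control. Mitochondrial ribosome genes and initiation factors were likewise higher in the cycling cells of both types in both libraries. The other TOP mRNAs, a list of 16 genes, were lower in cycling cells, with 2.48% of UMIs against 2.62% in noncycling CD8 T cells with OX40 agonist and 2.53% against 2.73% in control. In melanoma cells they took 2.37% against 2.69% with OX40 agonist and 2.33% against 2.70% in control. The 3 other ribosome components were lower too, for example 0.772% against 0.971% in CD8 T cells with OX40 agonist. Cycling cells were deeper, with medians of 16240 against 5755 UMIs in CD8 T cells with OX40 agonist, and 18731 against 7487 in control. The part of depth in these differences was not tested.

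**Figure D2:**
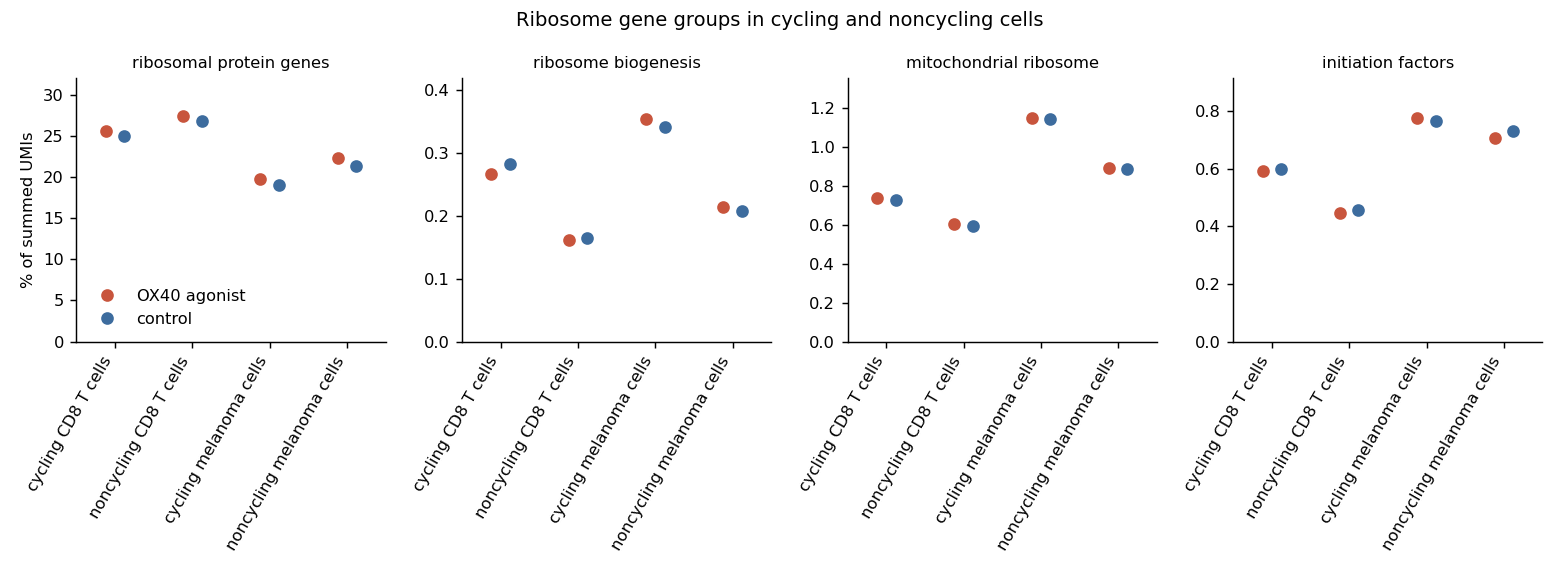
Percent of summed UMIs from the ribosomal protein genes and from 3 lists (ribosome biogenesis, mitochondrial ribosome, initiation factors) in cycling and noncycling CD8 T cells and melanoma cells, with OX40 agonist in red and control in blue, 1 point per library and cell group. Ribosomal protein shares are lower in cycling than in noncycling cells, for example 19.8 against 22.3% in melanoma cells with OX40 agonist, while the points of the other 3 lists are higher in cycling cells.

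Within the ribosomal protein UMIs, members ranged from nearly the same share in every type to shares that differed severalfold. For each member, the type with its highest share of ribosomal protein UMIs was divided by the type with its lowest, over the 7 types, in each library. The smaller of the 2 ratios had a median of 1.48 over the 83 members, was under 1.5 in 42 members and at least 2 in 17. Rpl23 and Rps10 varied least, with 1.12 and 1.16. The type with the highest share was the same in both libraries for 75 members, and the type with the lowest share for 70. Melanoma cells were the highest in both libraries for 29 members and the lowest for 26, and mature migratory DCs the highest for 14 and the lowest for 19. The types of 1 library share that library, so this repeat describes the cell types in both libraries and not the treatment.

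Rps27l differed most, being 13.2 times higher in mature migratory DCs than in NK cells with OX40 agonist and 11.8 times in control. It took 0.937% (0.914 to 0.960) and 0.967% (0.936 to 0.999) of ribosomal protein UMIs in mature migratory DCs. In NK cells it took 0.0712% (0.0615 to 0.0820) with OX40 agonist and 0.0818% (0.0723 to 0.0922) in control. Melanoma cells stood between them with 0.368% and 0.342%, close to macrophages with 0.341% and 0.339%. Its relative Rps27 was also highest in mature migratory DCs, with 0.881% and 0.843%, but lowest in melanoma cells, with 0.287% and 0.270%.

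Rps19, a small subunit protein whose gene is mutated in Diamond-Blackfan anaemia in humans, set mature migratory DCs apart from every other type of the 7. It took 2.99% (2.95 to 3.03) and 3.02% (2.97 to 3.08) of ribosomal protein UMIs there. In the 6 other types its share ran from 1.08% in NK cells to 1.78% in macrophages with OX40 agonist, and from 1.16% to 1.72% in the same types in control. None of the last 300 bases of its transcript recurs in another gene. Rpl34 was likewise highest in these DCs, with 2.10% and 1.91%.

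Several large subunit members were highest in melanoma cells. Rplp1, an acidic protein of the stalk that recruits elongation factors, took 3.35% (3.33 to 3.36) and 3.42% (3.40 to 3.43). In the 6 other types it ran from 1.44 to 2.37% with OX40 agonist and from 1.42 to 2.25% in control. The other stalk proteins did not follow it, since Rplp2 was lowest in melanoma cells, with 0.799% and 0.805%, and Rplp0 highest in CD8 T cells, with 2.19% and 2.25%. Rpl12, at the base of that stalk, took 1.71% (1.70 to 1.72) in melanoma cells and 0.605% (0.587 to 0.624) in mature migratory DCs with OX40 agonist. In control it took 1.69% (1.68 to 1.70) and 0.604% (0.580 to 0.630). Rpl32 was at 3.95% in melanoma cells with OX40 agonist and 4.13% in control, against 1.71% and 1.75% in mature migratory DCs. Rpl4, which lines the exit tunnel for the nascent chain, was also highest in melanoma cells, with 0.789% and 0.832%.

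The scarcer relatives also varied by type. Rps19bp1 was highest in melanoma cells, with 0.0479% and 0.0486% of ribosomal protein UMIs, and Rpl7l1 too, with 0.0591% and 0.0585%. In NK cells Rps19bp1 took 0.00779% and 0.0116% and Rpl7l1 0.0148% and 0.0119%, on 40 UMIs or fewer in each library. Rps27rt was highest in mature migratory DCs, with 0.0610% and 0.0354%, but 88.4% of the 50-base words in its last 300 bases also occur in Rps27, so its UMIs and those of Rps27 cannot be separated with confidence.

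**Figure D3:**
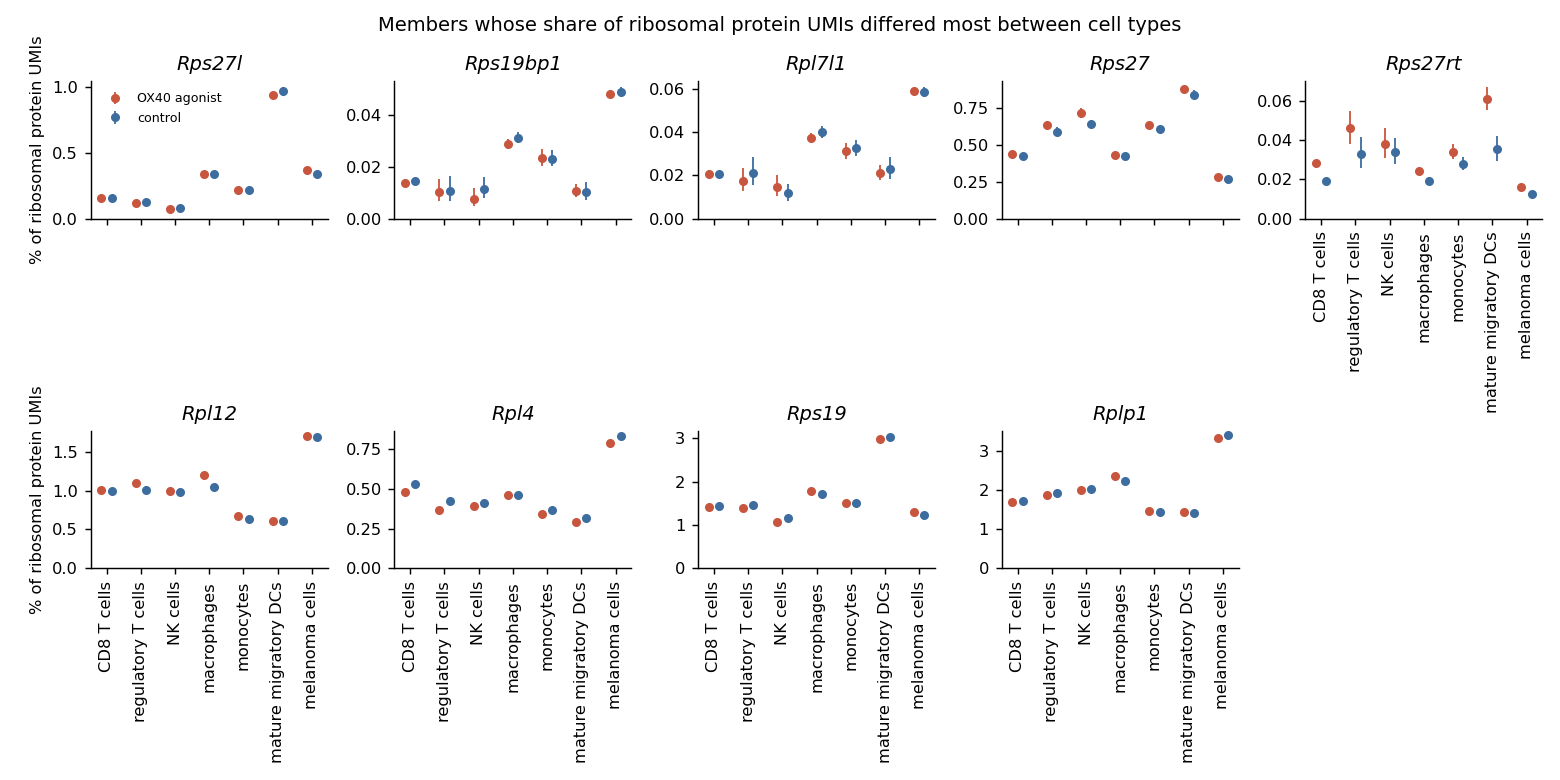
Percent of ribosomal protein UMIs held by each of 9 members from among the 10 that differed most between the 7 cell types, with OX40 agonist in red to the left and control in blue to the right, and bars for 95% counting intervals. The points of both libraries run close together in most panels, and mature migratory DCs stand highest for Rps27l, Rps27 and Rps19 while melanoma cells stand highest for Rplp1, Rpl12 and Rpl4.

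Paralogue use was measured as the less abundant gene's UMIs over the sum of the pair. The libraries capture transcript ends, so a gene's UMIs do not grow with its length, but capture may differ between genes, and the shares are compared between types and not read as shares of protein. Rps27l, known as a target gene of p53, made up 56.1% (55.7 to 56.6) of the Rps27l and Rps27 pair in melanoma cells with OX40 agonist and 55.9% (55.3 to 56.4) in control. In mature migratory DCs it was 51.5% (50.6 to 52.4) and 53.4% (52.2 to 54.6). With each cell thinned to 1000 UMIs it was 48.7% in mature migratory DCs with OX40 agonist. All 50-base words in the last 300 bases of Rps27 also occur in another listed gene, so the split of this pair is uncertain. Macrophages followed with 43.9% (43.3 to 44.5) and 44.4% (43.6 to 45.1). NK cells were lowest of the 7 types at 9.04% (7.85 to 10.3) and 11.3% (10.0 to 12.6).

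Cycling went with a higher Rps27l share in both types where it could be compared. Cycling CD8 T cells had 33.8% (32.8 to 34.9) and noncycling ones 17.2% (16.3 to 18.1) with OX40 agonist. In control they had 36.2% (35.3 to 37.0) and 16.8% (16.0 to 17.6). In melanoma cells the shares were 59.8% (59.3 to 60.4) in cycling and 45.8% (44.8 to 46.9) in noncycling cells with OX40 agonist, and 60.8% (60.1 to 61.6) and 44.0% (42.8 to 45.1) in control. Memory-like CD8 T cells had 8.27% and 10.6%, close to NK cells.

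The p53 target list did not follow one order over the types. Cdkn1a, which encodes the cell cycle inhibitor p21, was highest in monocytes, at 557.5 CPM (UMIs per 1000000) with OX40 agonist and 640.7 in control, where the Rps27l share was 25.9% (24.9 to 26.9) and 26.3% (25.3 to 27.3). In melanoma cells, with the highest Rps27l share, Cdkn1a was at 136.3 and 201.6 CPM, while Phlda3, another target gene, was highest there at 108.4 and 131.6 CPM. Of 8 listed targets, between 4 and 6 reached 10 CPM in a type.

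Among the 7 types, Rpl22l1 was most used by CD8 T cells. Its share of the pair with Rpl22 was 38.4% (37.9 to 38.9) with OX40 agonist and 37.7% (37.3 to 38.1) in control. NK cells had 32.7% (31.1 to 34.4) and 29.6% (28.1 to 31.1), melanoma cells 30.9% (30.5 to 31.2) and 29.6% (29.2 to 30.0), and regulatory T cells 28.0% (26.4 to 29.6) and 27.3% (25.6 to 29.1). Monocytes, with 23.7% (22.9 to 24.6) and 22.2% (21.4 to 23.0), and mature migratory DCs, with 21.0% (20.03 to 22.0) and 22.9% (21.5 to 24.2), were lowest of the 7. Among the types with fewer cells, type 1 conventional DCs had 18.4% (17.0 to 19.9) and 23.9% (22.0 to 25.9), and type 2 conventional DCs 23.3% and 22.7%. Plasmacytoid DCs had 36.7% (32.7 to 41.0) and 37.1% (31.8 to 42.7). In macrophages the share was 28.1% (27.6 to 28.6) with OX40 agonist and 24.8% (24.2 to 25.3) in control, the widest gap between the libraries of this pair among the 7 types. The level of Rpl22l1 there was 528.9 CPM and 420.5 CPM, while Rpl22 was at 1353 and 1277 CPM.

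Rpl7l1 stayed a minor gene in the 7 types and was used most by melanoma cells. It held 5.98% (5.81 to 6.16) and 5.97% (5.76 to 6.18) of the pair with Rpl7 there, against 2.07% (1.91 to 2.23) and 1.99% (1.87 to 2.12) in CD8 T cells. Cycling melanoma cells had 6.69% and 6.73%, and noncycling ones 4.27% and 4.11%. Rpl36al, the autosomal paralogue of the X-linked Rpl36a, was at 45.6% (45.1 to 46.2) and 39.2% (38.5 to 39.9) in melanoma cells and at 24.8% (24.1 to 25.5) and 19.7% (19.2 to 20.2) in CD8 T cells. Both genes of that pair share most of their transcript ends with other listed genes, so the split is uncertain. Rpl39l and Rpl3l were at most 0.522% of their pairs in the 7 types, Rpl10l had a single UMI in all, and Rps4l is not listed.

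**Figure D4:**
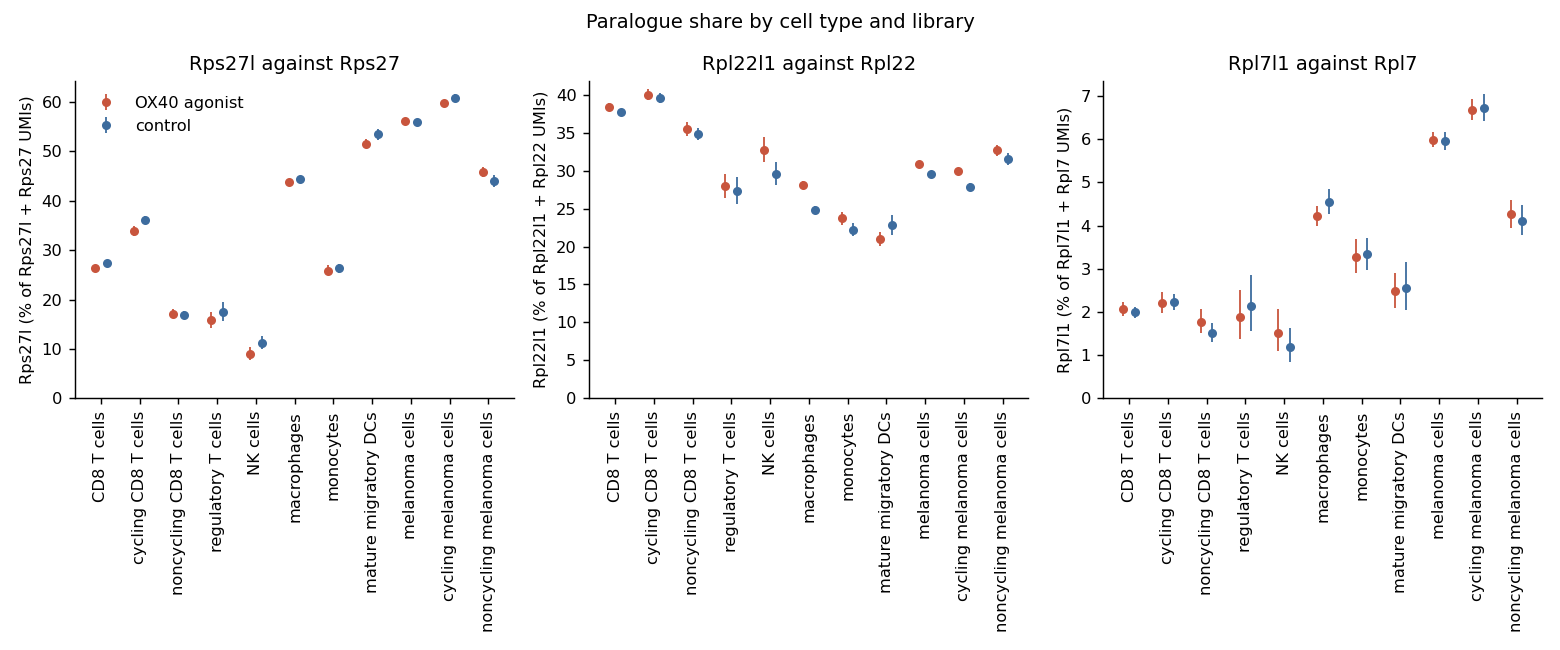
Share of each paralogue in percent of the pair's UMIs (Rps27l with Rps27, Rpl22l1 with Rpl22, Rpl7l1 with Rpl7) in the 7 cell types and in cycling and noncycling CD8 T cells and melanoma cells, with OX40 agonist in red to the left and control in blue to the right and bars for 95% counting intervals. Rps27l spans 9.04 to 59.8% with OX40 agonist, Rpl22l1 is highest in CD8 T cells and Rpl7l1 in melanoma cells.

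Between the libraries, the ribosomal protein share was slightly higher with OX40 agonist in all 7 types, and the size differed by type. Mature migratory DCs differed most, with a ratio of shares of 1.10 (1.09 to 1.10), followed by macrophages with 1.06 (1.05 to 1.06) and melanoma cells with 1.04 (1.04 to 1.04). CD8 T cells had 1.03 (1.03 to 1.03), and regulatory T cells and monocytes had 1.02 each. NK cells had 1.00 (0.998 to 1.01), an interval that includes no difference. These gaps are small beside the spread between cells. In mature migratory DCs the median cell had 19.5% (quartiles 15.9 and 23.3) with OX40 agonist and 17.5% (quartiles 14.1 and 21.3) in control.

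Depth and mitochondrial share also differed between the libraries. Median UMIs per cell were lower with OX40 agonist in each of the 7 types, for example 7689 against 8498 in mature migratory DCs and 11678 against 12420 in macrophages. In relative terms, the depth gap was narrowest in macrophages and mature migratory DCs, where the share differed most, and widest in NK cells. In NK cells, whose ratio of shares was 1.00, median UMIs were 3697 against 4760.5, and in monocytes, with 1.02, they were 5908 against 7454. The median mitochondrial share was higher with OX40 agonist in each of them, for example 2.52 against 2.19% in mature migratory DCs and 3.35 against 2.97% in macrophages. With each cell thinned to 1000 UMIs, the log2 ratio of shares was 0.15 in mature migratory DCs, against 0.13 with all UMIs. In macrophages it was 0.091, against 0.079. Thinning draws UMIs at random within a cell and keeps the cell's expected share, so it cannot show the part of depth. The parts of depth and of mitochondrial content in these differences were not tested.

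Member by member, levels were taken as CPM of a type's summed UMIs, and the log2 ratio of OX40 agonist over control was computed after adding 10 CPM to both. All 83 members reached 10 CPM in each of the 7 types, so none was filtered out, and members were set beside all genes that reached 10 CPM in either library. In mature migratory DCs, 78 members were higher with OX40 agonist, against 40.2% of all genes, and the median log2 ratio was 0.12 over members and -0.05 over all genes. In macrophages 73 members were higher, against 59.3% of all genes, with medians of 0.08 and 0.03. In CD8 T cells 66 were higher, against 40.6%, with medians of 0.04 and -0.03. In melanoma cells 66 were higher, against 59.1%, with medians of 0.06 and 0.02, and in monocytes 58, against 49.3%, with medians of 0.03 and -0.0019.

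Fewer members were higher in regulatory T cells and NK cells. In regulatory T cells 46 of 83 were higher (55.4%), against 46.0% of all genes, with medians of 0.01 and -0.03. In NK cells 43 were higher (51.8%), against 46.6%, with medians of 0.0059 and -0.02. The 7 comparisons share the same 2 libraries and are not independent of one another.

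Few members differed between the libraries by as much as 0.25 on the log2 scale. There were 4 in CD8 T cells (4.82% of members, against 4.71% of all genes), 4 in melanoma cells (against 5.84% of all genes) and 4 in monocytes (against 10.6%). There were 6 in macrophages (against 15.4%), 7 in mature migratory DCs (against 22.2%), 6 in regulatory T cells (against 39.0%) and 4 in NK cells (against 35.7%). The share of members was thus near that of all genes in CD8 T cells and melanoma cells and below it in the other 5 types. The genes set beside the members reach down to 10 CPM, whereas most members lie far above it. With 1021663 and 1249571 UMIs in all in NK cells, a gene near 10 CPM rests on few UMIs and can pass 0.25 by counting error. The part of level in these gaps was not tested.

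Rpl35 and Rpl27 passed 0.25 in all 7 types, and Rpl36al and Rps27rt in all but NK cells. Rpl35, a large subunit protein near the exit tunnel, was lower with OX40 agonist in all 7 types. It was at 647.8 CPM with OX40 agonist and 836.9 CPM in control in CD8 T cells, a ratio of 0.774 (0.753 to 0.796), and at 616.9 and 778.0 CPM in melanoma cells, a ratio of 0.793 (0.778 to 0.808). Its log2 ratio ran from -0.47 in NK cells to -0.31 in macrophages. Rpl10, which joins the large subunit late in its assembly, was lower by less, with log2 ratios from -0.19 to -0.11. With each cell thinned to 1000 UMIs, which keeps a small part of the UMIs, the log2 ratio of Rpl35 was 0.032 in mature migratory DCs.

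Higher with OX40 agonist were Rpl27, Rpl36al and Rps27rt. Rpl27 was at 732.4 and 582.2 CPM in CD8 T cells, a ratio of 1.26 (1.22 to 1.29), and its log2 ratio ran from 0.26 to 0.44 over the types. Rpl36al was at 390.1 and 291.3 CPM in melanoma cells, a ratio of 1.34 (1.30 to 1.38), and its log2 ratio ran from 0.24 to 0.46. Rps27rt was at 119.5 and 63.2 CPM in mature migratory DCs, a ratio of 1.89 (1.55 to 2.32), and its log2 ratio ran from 0.14 in NK cells, where the interval of the ratio of 1.11 (0.843 to 1.47) includes no difference, to 0.82. Thinned to 1000 UMIs per cell, which leaves few UMIs of Rps27rt, its log2 ratio was -0.21 in melanoma cells.

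**Figure D5:**
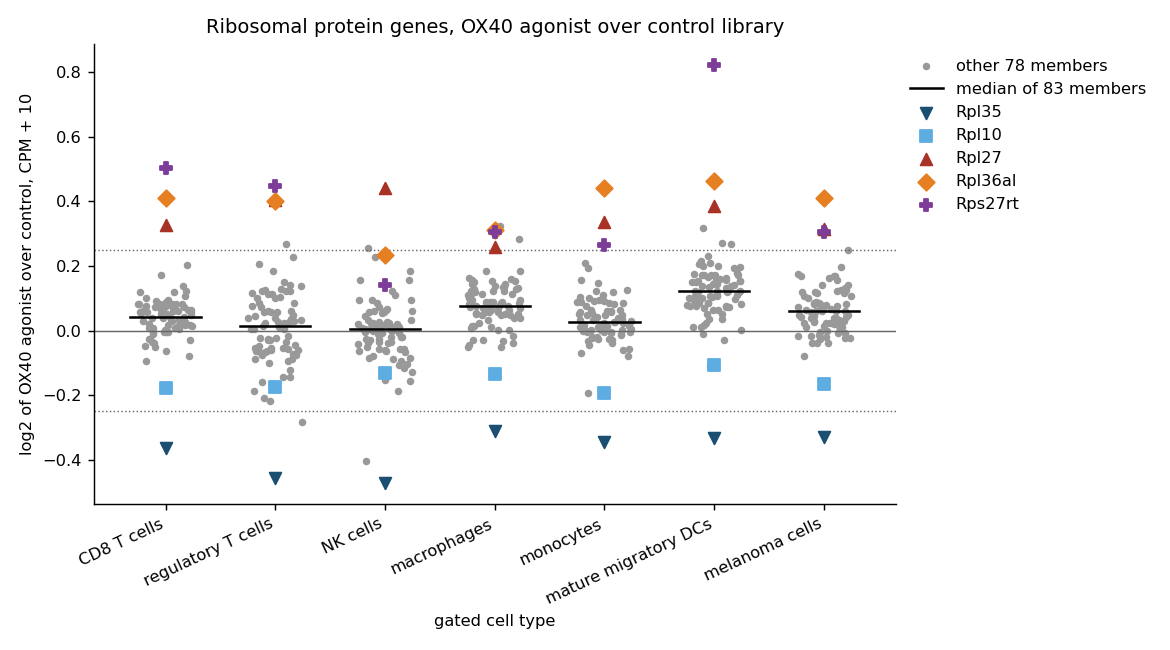
Log2 of OX40 agonist over control for each of the 83 ribosomal protein genes in the 7 cell types, on CPM after adding 10, with 1 point per gene, the median as a black line and dotted lines at 0.25 in either direction. Rpl35 lies between -0.47 and -0.31 and Rpl27 between 0.26 and 0.44 in the 7 types, while the medians lie between 0.0059 and 0.12.

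These 5 members have near-identical copies among the genes listed. The last 300 bases of each member's longest protein-coding transcript were split into 50-base words. Of these words, 100% of those of Rpl10, 96.0% of Rpl35, 88.4% of Rps27rt, 83.3% of Rpl27 and 61.8% of Rpl36al occur in transcripts of another listed gene. In all, 13 members had 50% or more of their words in other listed genes. The other 8 (Rpl29, Rpl36a, Rpl41, Rpl7a, Rplp1, Rps12, Rps18 and Rps27) did not pass 0.25 in any type, and neither did Rpl10. The sources used here do not give how reads that match several genes were counted, so the levels of all 13 are uncertain. Nor do they say whether both libraries were sequenced in the same run and at the same read length. The differences of Rpl35, Rpl10 and Rpl27 had the same sign in all 7 types, melanoma cells included, as had those of Rpl36al and Rps27rt, and treatment and library preparation or sequencing cannot be told apart.

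The UMIs of the listed copies were also added to those of the member. With its copies Gm10269, Gm2000 and Gm49368 added, Rpl35 had a log2 ratio without added CPM of -0.36 (-0.40 to -0.32) in CD8 T cells and -0.33 (-0.35 to -0.30) in melanoma cells. With Rpl27-ps3 added, Rpl27 had 0.31 (0.27 to 0.35) and 0.30 (0.27 to 0.33). These copies hold few UMIs, 351 and 632 beside 7600 and 15115 of Rpl35 in CD8 T cells, so the sums could hardly differ from the members alone. The listed copy of Rpl36al, Gm49383, had 0 UMIs in both libraries. The sum of Rps27rt and Rps27 had 0.12 (0.09 to 0.15) in CD8 T cells and 0.23 (0.17 to 0.30) in mature migratory DCs, where Rps27rt alone had 0.92 on that scale. Rps27 holds most of that sum, with 13741 and 19799 UMIs beside 873 and 895 of Rps27rt in CD8 T cells.

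Of the members without such copies, none passed 0.25 in CD8 T cells, monocytes or melanoma cells, where Rps28 came nearest in melanoma cells at 1160 and 975.1 CPM (0.249). In macrophages Rpl22l1 and Rpl12 were higher with OX40 agonist. Rpl22l1 had a ratio of 1.26 (1.22 to 1.30), though 63.3% of its words occur in 3 other genes, which are not listed. Rpl12, at 2066 and 1697 CPM, had a ratio of 1.22 (1.20 to 1.24). In mature migratory DCs 3 members were higher. Rps28, a small subunit protein, was at 1284 and 1028 CPM, a ratio of 1.25 (1.19 to 1.32), Rpl34 at 4117 and 3410 CPM, a ratio of 1.21 (1.17 to 1.24), and Rpl39, at the exit tunnel, at 3634 and 3018 CPM, a ratio of 1.20 (1.17 to 1.24). In regulatory T cells Rps15a was at 6635 and 5505 CPM, a ratio of 1.21 (1.17 to 1.25), and Rpl13a at 210.2 and 257.9 CPM, a ratio of 0.815 (0.684 to 0.970). In NK cells Rpl7l1 and Rps19bp1 passed on 40 and 39 UMIs and on 21 and 38 UMIs, and both intervals of the ratio include no difference.

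Other genes of protein synthesis, taken from fixed lists, did not all move with the ribosomal protein genes. The list of ribosome components outside the name pattern includes Fau and Rack1. Fau, which encodes a small subunit protein fused to a ubiquitin-like one, was at 9333 and 8504 CPM in mature migratory DCs, a ratio of 1.10 (1.08 to 1.12), and at 2496 and 2542 CPM in melanoma cells, a ratio of 0.982. Rack1, a scaffold on the small subunit, had log2 ratios from -0.08 in NK cells to 0.07 in macrophages. Of 16 other TOP mRNAs, such as Eef1a1 and Tpt1, 11 were higher with OX40 agonist in macrophages (against 59.3% of all genes) and 9 in melanoma cells (against 59.1%). There were 7 in monocytes (against 49.3%), 7 in mature migratory DCs (against 40.2%) and 6 in CD8 T cells (against 40.6%). There were 5 in NK cells (against 46.6%) and 3 in regulatory T cells (against 46.0%). Eef1a1, the elongation factor that delivers tRNA, was at 7681 and 8158 CPM in CD8 T cells and at 8257 and 8904 CPM in NK cells.

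Ribosome biogenesis genes were mostly higher with OX40 agonist in macrophages, monocytes, mature migratory DCs and melanoma cells. They were mostly lower in regulatory T cells, CD8 T cells and NK cells, and the difference between the types was not tested. In macrophages 19 of 21 measured genes were higher with OX40 agonist, with a median log2 ratio of 0.10, while 59.3% of all genes were higher there. In regulatory T cells 7 of 20 were higher, against 46.0% of all genes, with a median of -0.12, and Ncl, the nucleolin gene, was at 494.7 and 716.5 CPM. Melanoma cells had 16 of 22 higher, against 59.1% of all genes, with a median of 0.08. Monocytes had 13 of 18 higher (against 49.3%), with a median of 0.13, and mature migratory DCs 9 of 12 (against 40.2%), with 0.09. The summed level of the list was nevertheless lower with OX40 agonist in these DCs, at 655.7 and 680.0 CPM. In macrophages, monocytes and melanoma cells the summed level was higher. CD8 T cells had 8 of 21 higher (against 40.6%), with a median of -0.04, and NK cells 9 of 21 (against 46.6%), with -0.03. Of 13 initiation factors, 2 were higher in regulatory T cells (against 46.0% of all genes), 1 in NK cells (against 46.6%) and 3 in mature migratory DCs (against 40.2%). In macrophages 9 were higher (against 59.3%), in monocytes 7 (against 49.3%), in melanoma cells 6 (against 59.1%) and in CD8 T cells 5 (against 40.6%). Eif3b, a scaffold subunit of the initiation factor eIF3, was at 63.0 and 105.7 CPM in regulatory T cells, a ratio of 0.597 (0.440 to 0.805). The mitochondrial ribosome genes divided evenly in regulatory T cells, with 37 of 74 higher (against 46.0% of all genes). In CD8 T cells 51 of 76 were higher (against 40.6%), and in NK cells 30 of 74 (against 46.6%). No test of these lists was possible with 1 library per group.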

How the data were processed

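The deposited matrices give whole-number UMI counts for each gene in each cell barcode, not normalized. The counting software was Cell Ranger with mm10, per the submitters' processing notes, and its version was 3.1.0, per the file headers. The authors had already called cells. Libraries were 10x Genomics 3′ v3, per the labels' protocols. The deposited gene symbols, gene IDs and barcodes named rows and columns.

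Barcodes entered with at least 500 UMIs and 200 genes and with no more than 10% of UMIs mitochondrial, 7500 with OX40 agonist and 6354 in control. Doublets were scored with scanpy 1.11.5 against simulated pairs of cells (2 per cell), and the top scores were removed at 0.8% per 1000 deposited barcodes (514 and 365 cells), since the automatic threshold marked 0.0128% and 0%. The libraries shared 18 barcodes. Minimum marker UMIs of the gates (4 for the CD3 genes, 100 for melanoma markers, for example) were set after seeing the marker distributions. Members and gene lists were chosen with earlier results of these data known.

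Named members are the 5 with most and fewest UMIs, the 10 widest between types, the 3 highest and 3 lowest log2 ratios per type, all paralogue pairs and up to 4 genes a list. Others named were chosen after their values were seen. Some genes that these rules name are not reported here. Shares have Clopper-Pearson 95% intervals. Ratios have an exact interval that conditions on the sum of both counts. Both kinds take UMIs as independent and leave out variation between cells, animals and preparations. Interval coverage was checked on simulated counts. Positions and transcripts come from GENCODE M21 (GRCm38, the build of mm10), start windows from RefSeq. Alternatives changed filters, doublets, gates, depth, denominators and added CPM. Computations used Python 3.11.15, numpy 2.4.6, scipy 1.17.1, pandas 2.3.3 and matplotlib 3.10.9.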

Additional observations from a re-analysis of the deposited data

Results flagged for a closer look

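Levels of Rps19, a small subunit protein, lay on opposite sides of the control library in different cell types, each by at least 0.1 on the log2 scale with intervals of the ratio that do not include 1. Rps19 was at 2676 CPM with OX40 agonist and 2425 CPM in control in melanoma cells, and at 2847 and 3061 CPM in NK cells. The log2 ratios were 0.14 and -0.10, a difference of 0.245. The difference between the types was not tested.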

How the results depend on the processing

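Thinning used cells of at least 1000 UMIs and drew 1000 UMIs at random from each, which keeps each cell's expected share. Each cell then has the same weight, and the part of depth is not tested. The thinned log2 ratio of ribosomal protein shares (OX40 agonist over control) was 0.053 in CD8 T cells and 0.036 in regulatory T cells. It was 0.019 in NK cells, 0.091 in macrophages, 0.15 in mature migratory DCs, 0.062 in melanoma cells and 0.0032 over all kept cells. As a mean over cells it was 0.054 in CD8 T cells, 0.082 in macrophages, 0.025 in monocytes, 0.15 in mature migratory DCs and -0.0028 over all kept cells, where the sign turned. With mitochondrial UMIs left out it was 0.083 in macrophages, 0.037 in monocytes, 0.14 in mature migratory DCs, 0.061 in melanoma cells and 0.023 over all kept cells. At most 5% mitochondrial UMIs gave 0.037 in CD8 T cells, 0.090 in macrophages and 0.023 over all kept cells, and at most 20% gave 0.044 and 0.075 in CD8 T cells and macrophages. Doubled marker minimums gave 0.037 in CD8 T cells, 0.065 in regulatory T cells, 0.041 in monocytes and 0.056 in melanoma cells. Without members that have listed copies, chosen after seeing the data, it was 0.057 in melanoma cells and 0.017 over all kept cells.

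The share of CD8 T cells over macrophages was 1.57 with OX40 agonist and 1.61 in control when thinned, 1.52 and 1.58 at 5% mitochondrial UMIs, 1.53 and 1.58 with doubled minimums, and 1.55 with OX40 agonist at 20%. Thinned, Rps27l took 48.7% of its pair in mature migratory DCs with OX40 agonist, 55.0% and 51.1% in melanoma cells of the OX40 agonist and control libraries, and 9.43% in control NK cells. Rpl22l1 took 35.6% and 34.8% in CD8 T cells and 24.7% and 23.7% in monocytes. Of 336 recomputed log2 ratios of named members, 313 stayed within the interval of the reported value, 21 moved outside it and 2 whose interval does not include 0 turned sign, both when thinned: Rpl35 in mature migratory DCs to 0.032 and Rps27rt in melanoma cells to -0.21. The causes were not tested. No paired analysis was possible because each group is 1 library and no label pairs them. Depth limits the scarce members most, such as Rps19bp1 and Rpl7l1 in NK cells.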
